A study of Mus musculus with 21 samples.

Results

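The semaphorin guidance system was measured as 36 protein-coding genes of the deposited table of 31883 genes: 20 semaphorins, 9 plexins, 2 neuropilins and 5 collapsin response mediator proteins (CRMPs). They were taken by a rule on gene symbols, chosen with earlier results of these data known. The genes were compared between the subcommissural organ (SCO), a secretory ependymal gland under the posterior commissure, and the hippocampus of newborn mice. All mice were of the strain C57BL/6, with no genetic change or treatment named in the labels. On postnatal day 0 (P0) there were 5 hippocampus and 4 SCO libraries, with 35379988 to 151009954 reads each. The 12 adult (day 60) samples were left aside. Values are normalized counts, meaning reads after division by the size factor of their library. Whether separate animals were used is not stated in the labels. The p-values therefore reflect only how these samples vary, and that variation may be technical.

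Semaphorins are secreted or membrane-bound cues that steer growing axons, migrating neurons and vessels. Plexins are their signalling receptors, neuropilins are the coreceptors that most secreted class 3 semaphorins need, and CRMPs are cytosolic proteins that bind tubulin and carry part of the signal to the cytoskeleton. In the developing hippocampus the system is known for guiding commissural and mossy fibre axons and for placing interneurons.

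The tissue labels were compared with marker genes first. Of 5 SCO markers 4 were higher in the SCO libraries, among them Sspo, which encodes SCO-spondin, and of 9 markers of hippocampal and cortical excitatory neurons 8 were lower. The 7 pan-neuronal markers were not absent from SCO: their summed normalized count was 109266 to 201984 there and 258896 to 294679 in hippocampus, with 2 of the 7 (Snap25 and Dcx) called lower. Other neuronal markers differed too: 9 habenular, thalamic and pretectal markers summed to 51646 to 84416 in SCO and 2881 to 6495 in hippocampus. Of the 9, 5 were called higher in SCO and none lower. A large part of the SCO sum was 1 gene, Tcf7l2, with 22202 to 49664 normalized counts there. Tac2 went the other way, with a mean of 278 in SCO and 830 in hippocampus, and was not called. Of 6 markers of motile ciliated ependyma 4 were higher in SCO. The part of these cells in the differences below was not tested. Hippocampus replicate 2 stood apart in the summed share of this gene set, though not in every member. Among tested members it was the lowest hippocampus library for 12 and the highest for 5. The 36 genes took 0.305% of its reads, against 0.601% to 0.642% in the other hippocampus libraries and 0.224% to 0.298% in SCO. SCO replicate 4 held most of the choroid plexus signal (Ttr 171311 normalized counts, 107.7 to 559.5 in the other SCO libraries).

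Of the 35 members that passed the filter on low values, 1 was higher and 3 were lower in SCO at an adjusted p under 0.05 in limma, which called 1.71% of all tested genes higher and 1.34% lower, 3.05% in all. The gene that rose was Plxnb3, a B-type plexin. The genes that fell were Plxna2, an A-type plexin, Nrp1, the neuropilin of Sema3a signalling, and Dpysl3, also known as CRMP4. Taken by single libraries, 2 members lay wholly higher in SCO (Plxnb3 and Plxnb2) and 5 wholly lower (Nrp1, Plxna2, Sema3c, Dpysl2 and Dpysl3), 7 of 35 without overlap. Among all tested genes 4.78% lay wholly higher and 3.75% wholly lower, 8.53% in all. The median log2 fold change of the 35 genes was -0.65, with 10 above 0 and 25 below 0, and that of all tested genes was -0.04. Of 34 members with an adjusted p in the authors' deposited table, 2 were called higher and 7 lower there at the same threshold, while 6.98% of all its genes were called higher and 5.69% lower, 12.7% in all. Those 9 were the 4 genes above together with Plxnb2, which was higher, and Crmp1, Dpysl2, Sema3c and Sema5a, which were lower.

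**Figure D1:**
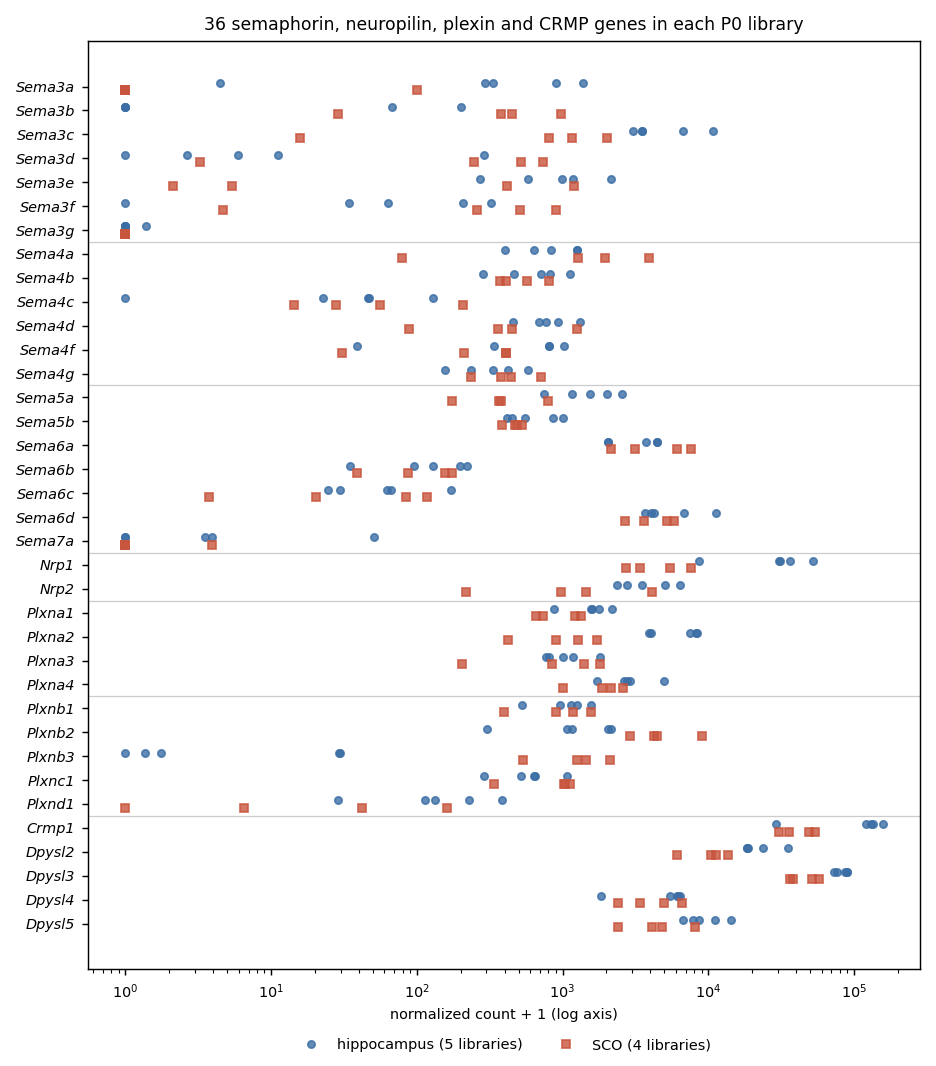
Normalized count plus 1 on a log axis for each of the 36 genes (rows, grouped by class), with 5 hippocampus libraries as blue circles and 4 SCO libraries as red squares. Plxnb3 sits between 0 and 28.9 in hippocampus and between 531 and 2104 in SCO, the largest fold difference among the called genes, while class 3 semaphorins spread over several decades within each tissue.

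**Figure D2:**
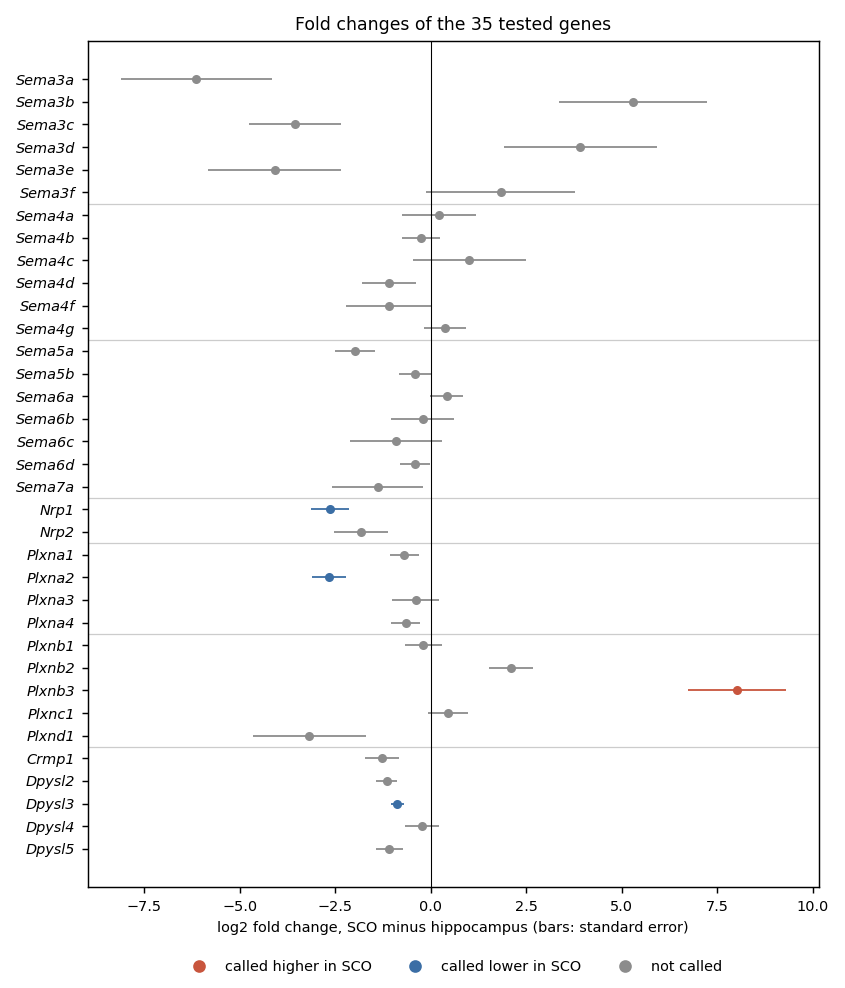
Log2 fold change of each tested gene, SCO minus hippocampus on the log2(normalized count + 1) scale, with its standard error as the bar. Plxnb3 (8.02) is the only gene called higher, Nrp1 (-2.63), Plxna2 (-2.67) and Dpysl3 (-0.87) are called lower, and the 5 longest bars belong to class 3 semaphorins.

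The most separated member was the receptor gene Plxnb3. The hippocampus libraries held 0, 28.1, 28.9, 0.366 and 0.761 normalized counts of it in replicates 1 to 5, or 48 reads in all. The SCO libraries held 531, 2104, 1265 and 1454 in replicates 1 to 4, or 4465 reads. Every SCO library lay far above every hippocampus library, and within hippocampus the signal came almost entirely from replicates 2 and 3. The SCO mean was 1338 ± 647 (SD, n = 4), 115 times the hippocampus mean of 11.6 ± 15.4 (SD, n = 5). On the log2 scale the difference was 8.02 with a standard error of 1.28 (limma adjusted p = 0.00779). The call held without each of the 9 libraries (limma adjusted p 0.00584 to 0.0302), with a log2 difference of 8.69 without hippocampus replicate 2 and 8.70 without replicate 3, while edgeR on the recovered reads gave an adjusted p of 0.0527. In the annotation Plxnb3 is ENSMUSG00000031385.14, chromosome X, 73757090 to 73772514, plus strand in the build GRCm38.

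Plexin-B3 is known in mice chiefly from oligodendrocytes and binds Sema5a. Of the 7 oligodendrocyte lineage markers measured, none was called in either direction by limma. Their summed normalized count was 1585 to 5978 in hippocampus and 4057 to 9675 in SCO. Sox10, which defines that lineage, had 630, 57.6, 331 and 390 in SCO replicates 1 to 4, so the library with the most Plxnb3, replicate 2, had the least Sox10. Their part in the Plxnb3 difference was not tested.

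Plxna2, a receptor for Sema6a and Sema6b that is known from mossy fibre targeting, fell in SCO. The hippocampus libraries held 8265, 3896, 8390, 7508 and 4068 normalized counts, and the SCO libraries 421, 905, 1722 and 1269. The highest SCO library was below the lowest hippocampus library. This gave a log2 difference of -2.67 with a standard error of 0.44 (limma adjusted p = 0.00993). This call held without each library in turn (limma adjusted p 0.0104 to 0.0328) and in edgeR (adjusted p = 0.0196). In the annotation Plxna2 is ENSMUSG00000026640.12, chromosome 1, 194618218 to 194816869, plus strand.

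Nrp1, which encodes the coreceptor that binds Sema3a and also vascular endothelial growth factor, fell by a like amount. Its normalized counts were 52300, 8592, 30903, 30746 and 36615 in hippocampus and 3403, 2748, 7590 and 5431 in SCO. Hippocampus replicate 2 was far below the other hippocampus libraries and close above SCO replicate 3. Between the tissues the log2 difference was -2.63 with a standard error of 0.49 (limma adjusted p = 0.0185), and the mean in SCO was 0.151 of that in hippocampus. The call ended without hippocampus replicate 3 (limma adjusted p = 0.0514), SCO replicate 1 (0.0547) or SCO replicate 2 (0.0567), and without hippocampus replicate 2 the log2 fold change was -3.05 (limma adjusted p = 0.00178). In bulk tissue, fewer cells of a type and less RNA per cell cannot be told apart, here and for the genes below. In the annotation Nrp1 is ENSMUSG00000025810.9, chromosome 8, 128358604 to 128503363, plus strand.

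The stretches before the RefSeq starts of these 3 receptor genes are shown because they are the called receptors and differ in composition. Each is the 250 bases upstream of the start on the plus strand in GRCm38.p6, read 5′ to 3′, with CG dinucleotides in capitals. The windows are chrX:73756853-73757102 for Plxnb3, chr1:194619579-194619828 for Plxna2 and chr8:128358823-128359072 for Nrp1. By the gene positions given above, the Plxna2 and Nrp1 windows lie inside the annotated genes, after their starts. The Plxnb3 window runs across its annotated gene start.
Plxnb3: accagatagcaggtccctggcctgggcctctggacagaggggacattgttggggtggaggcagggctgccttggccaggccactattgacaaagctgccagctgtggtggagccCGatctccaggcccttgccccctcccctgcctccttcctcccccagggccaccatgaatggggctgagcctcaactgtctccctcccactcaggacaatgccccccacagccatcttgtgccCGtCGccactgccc
Plxna2: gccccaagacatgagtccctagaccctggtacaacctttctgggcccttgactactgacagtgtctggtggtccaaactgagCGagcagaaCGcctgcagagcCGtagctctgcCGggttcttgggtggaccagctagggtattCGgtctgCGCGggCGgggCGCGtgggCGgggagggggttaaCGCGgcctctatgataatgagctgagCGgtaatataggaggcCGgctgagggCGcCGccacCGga
Nrp1: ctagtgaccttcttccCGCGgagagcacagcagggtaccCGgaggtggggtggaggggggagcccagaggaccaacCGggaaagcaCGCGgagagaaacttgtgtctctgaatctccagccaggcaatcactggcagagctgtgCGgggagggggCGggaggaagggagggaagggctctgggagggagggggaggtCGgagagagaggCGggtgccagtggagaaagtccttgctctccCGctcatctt

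The Plxnb3 window held 3 CG dinucleotides, the Plxna2 window 18 and the Nrp1 window 11. Over the 40 windows that the RefSeq table gives for 28 of the 36 members, the median was 14 and the range 0 to 39, and over all 32851 windows of that length the median was 6. The median GC content was 63.8% in the member windows and 52.4% in all. Short motifs were searched on both strands: TAATCC, bound by OTX proteins, and TAATTA, a homeodomain site, CAGATG, an E-box, AGGTGTGA, a T-box site, and CCGGAT, a site of SPDEF. TAATCC and TAATTA share their first letters, and TAATCC read on the other strand can overlap CCGGAT. None of these letters occurs in the windows printed above. In the 40 member windows TAATCC occurred in 1 (6.25% of all windows hold it), CAGATG in 2 (14.4%), CCGGAT in 4 (4.94%), and TAATTA (4.84%) and AGGTGTGA (1.12%) in 0. The CCGGAT windows belong to Plxnb1, Sema3d, Sema3e and Sema4b.

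Plxnb2, the plexin of neural progenitors and a receptor for Sema4c and Sema4d, was the other member whose tissues did not overlap upward. Its normalized counts were 2135, 302, 1167, 1064 and 2055 in hippocampus and 4245, 4473, 9101 and 2895 in SCO. The SCO mean of 5178 ± 2706 (SD, n = 4) was 3.85 times the hippocampus mean of 1345 ± 763 (SD, n = 5). The log2 fold change of 2.10 (SE 0.58) did not pass in limma (adjusted p = 0.0872), and the authors' deposited table lists 1.94 with an adjusted p of 0.00679. Markers of microglia, which also express this gene, had a summed level of 13875 to 22882 in hippocampus and 31439 to 43762 in SCO, with 1 of 10 called higher and none at 0 over either tissue. The part of these cells in the Plxnb2 values was not tested.

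The remaining plexins did not pass the test. Plxnb1 had 1092 ± 383 normalized counts in hippocampus (SD, n = 5) and 1009 ± 490 in SCO (SD, n = 4), with a log2 fold change of -0.19 (SE 0.48). Plxna1, Plxna3 and Plxna4, receptors that pair with neuropilins, had log2 fold changes of -0.70, -0.39 and -0.65 with overlapping tissues, and those of Plxna1 may include reads of the antisense gene Gm26811, which covers 10.7% of its exon bases. Plxnc1, the receptor of Sema7a, had 289 to 1077 in hippocampus and 340 to 1130 in SCO. Plxnd1, the plexin of vessels and Sema3e, had 27.9 to 384 in hippocampus and 0 to 160 in SCO (limma log2 fold change -3.18, SE 1.48, adjusted p = 0.338). The 11 endothelial markers, none of them called, summed to 9745 to 19991 in hippocampus and 23671 to 29315 in SCO. Part of that gap is Ocln, a tight junction gene that epithelia share, with 106 to 2397 in hippocampus and 4580 to 6956 in SCO.

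Levels of different plexins were compared per kilobase of merged exons (GENCODE M21). Plxna2 had the largest mean share of the 9 in hippocampus, 28.3% ± 7.16 of the plexin signal per kilobase (SD, n = 5). It took 4.04% ± 1.87 in SCO (SD, n = 4). In hippocampus replicate 2 Plxna1 (24.2%) exceeded Plxna2 (22.7%), and in replicate 5 Plxnb2 (22.0%) exceeded it (19.6%). Plxnb2 was the largest in SCO, 42.0% ± 14.3, and took 13.1% ± 7.21 in hippocampus. Plxnb3 took 13.4% ± 6.35 in SCO, from 6.07% in replicate 1 to 19.6% in replicate 2, and 0.157% ± 0.212 in hippocampus. By mean share, the order of the leading plexins thus differed between the tissues. Several smaller ones in SCO were close to each other, with SDs as large as the gaps between them. These were Plxna3 at 9.43%, Plxna4 at 9.01%, Plxna1 at 7.39%, Plxnc1 at 7.32% and Plxnb1 at 6.88%.

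**Figure D3:**
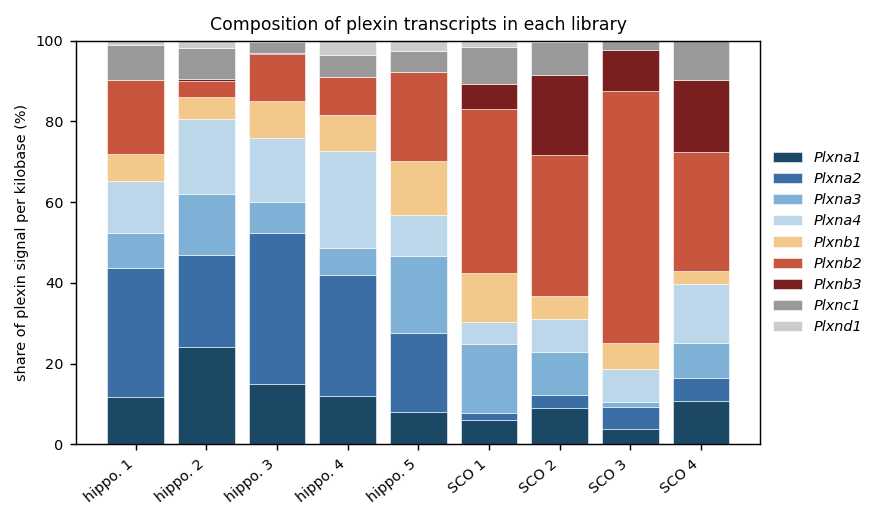
Share of the 9 plexins in the plexin signal per kilobase of exon (y axis, percent) for each library (x axis), A-type plexins in blue, B-type in yellow to dark red, Plxnc1 and Plxnd1 in grey. Plxnb2 and Plxnb3 together fill a larger part of each SCO bar than of any hippocampus bar, and Plxna2 takes 1.82% to 5.85% in SCO and 19.6% to 37.4% in hippocampus.

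Nrp2, the coreceptor of Sema3f, varied more than Nrp1 between SCO libraries. Its normalized counts were 6394, 2792, 3536, 2376 and 5055 in hippocampus and 4137, 1457, 217 and 981 in SCO. SCO replicate 1 lay within the hippocampus range and the other SCO libraries lay below it. Its log2 fold change of -1.82 (SE 0.71) did not pass (limma adjusted p = 0.241). Per kilobase, Nrp1 made up 89.0% ± 5.87 of the neuropilin signal in hippocampus and 76.0% ± 20.9 in SCO.

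Among the ligands, no semaphorin passed the test: 19 of the 20 were tested, and 7 had a log2 fold change above 0 and 12 below 0. The class 3 semaphorins, which are secreted, were the least even members between libraries of 1 tissue. Their median SD on the log2 scale was 3.20 in hippocampus and 3.38 in SCO, against 0.92 and 0.88 over all tested genes and 0.43 and 0.50 for the CRMPs. Many of these values are low, which by itself widens the spread on a log scale.

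Sema3c, a class 3 ligand of both neuropilins, was the most abundant of its class in each tissue. The hippocampus libraries held 6722, 3531, 3034, 3498 and 10732 normalized counts and the SCO libraries 1152, 14.8, 2012 and 806. All SCO libraries were below all hippocampus libraries, and SCO replicate 2 was almost without it. In limma it differed by -3.55 on the log2 scale with a standard error of 1.21 (limma adjusted p = 0.169), and without SCO replicate 2 by -1.98 (limma adjusted p = 0.0837). The authors' deposited table lists -2.47 with an adjusted p of 0.0405. Sema3a, the prototype repellent, had 904, 332, 295, 1381 and 3.42 in hippocampus and 0, 98.9, 0 and 0 in SCO. The low hippocampus library, replicate 5, kept the tissues overlapping, and without it the log2 fold change was -7.55 (limma adjusted p = 0.0432) instead of -6.14 (limma adjusted p = 0.142). Sema3e, the ligand of Plxnd1, had 991, 269, 583, 1183 and 2159 in hippocampus, and 1206, 4.43, 415 and 1.12 in SCO, where replicates 2 and 4 were nearly empty.

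The other class 3 genes had higher means in SCO without passing the test. Sema3b had 449, 379, 979 and 28.0 normalized counts in SCO, and in hippocampus 67.1 and 200 in replicates 3 and 4 and 0 in the others (limma log2 fold change 5.30, SE 1.93, adjusted p = 0.202). Sema3d had 248, 734, 520 and 2.24 in SCO and at most 289 in hippocampus. Sema3f, the ligand of Nrp2, had 260, 901, 3.65 and 508 in SCO and 0 to 323 in hippocampus. The tissues overlapped for each of these genes: SCO replicate 4 lay within the hippocampus range for Sema3b, replicates 1 and 4 for Sema3d, and replicates 1 and 3 for Sema3f. Sema3g, an arterial semaphorin, had 1 read over the 5 hippocampus libraries and 0 over the 4 SCO libraries, and its mean was below the filter on low values, so it was not tested.

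Class 3 genes lie in groups on the genome. In GRCm38 Sema3d (12383385 to 12588948), Sema3a (13125414 to 13602565), Sema3e (14025276 to 14256689) and Sema3c (17574281 to 17730268) follow each other on the plus strand of chromosome 5. Sema3b (107597674 to 107609229) and Sema3f (107681500 to 107710475) are neighbours on the minus strand of chromosome 9. The chromosome 9 pair had higher means in SCO, and in the chromosome 5 group Sema3a, Sema3c and Sema3e had lower means there and Sema3d a higher one. These are directions of means, since none of the 6 was called.

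Class 4 semaphorins, membrane ligands of B-type plexins among others, did not separate the tissues. Sema4a, the most abundant of them, had 404, 632, 1248, 834 and 1260 normalized counts in hippocampus and 77.6, 1267, 3939 and 1962 in SCO. SCO replicates 3 and 4 were above the hippocampus range, replicate 2 was level with its top and replicate 1 below it (limma log2 fold change 0.22, SE 0.98, adjusted p = 0.929). Sema4b, Sema4d, Sema4f and Sema4g had log2 fold changes of -0.26, -1.10, -1.10 and 0.39, and Sema4c, the ligand of Plxnb2, had 13.3 to 207 in SCO and 0 to 128 in hippocampus. The Sema4c values may include reads of the antisense gene D430040D24Rik, which covers 7.27% of its exon bases. A spread of 1.62 (median SD on the log2 scale) in SCO against 0.75 in hippocampus limited what could be seen for this class.

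Of the transmembrane semaphorins of classes 5 and 6, Sema5a, a bifunctional cue and ligand of Plxnb3, had the largest difference. It had 1539, 745, 2014, 2577 and 1166 normalized counts in hippocampus and 792, 366, 379 and 173 in SCO. Hippocampus replicate 2 lay just below SCO replicate 1, and the other libraries of the tissues were apart. Its log2 fold change of -1.98 (SE 0.52) did not pass in limma (adjusted p = 0.0755), passed without hippocampus replicate 2 (limma adjusted p = 0.0457) and stands at -1.91 with an adjusted p of 0.00340 in the authors' deposited table. Its close relative Sema5b had 657 ± 263 in hippocampus (SD, n = 5) and 469 ± 60.1 in SCO (SD, n = 4).

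Sema6a and Sema6d, membrane ligands of A-type plexins, had the highest means of the semaphorins in SCO. Per kilobase they took 25.7% ± 12.6 and 19.3% ± 3.44 of the semaphorin signal there, and 14.4% ± 5.17 and 20.5% ± 5.77 in hippocampus. Sema3c had the largest mean share in hippocampus, 27.0% ± 8.11. Single libraries differed: Sema4a led in SCO replicate 3 (28.0%) and Sema6d in hippocampus replicate 3 (27.1%, Sema3c 17.7%). Sema6a had 2047 to 4472 normalized counts in hippocampus and 2159 to 7653 in SCO, and Sema6d 3680 to 11347 and 2671 to 5825. Neither passed (limma adjusted p = 0.657 and 0.637). Sema6b and Sema6c were at or below 219 in every library, and Sema7a, a lipid-anchored semaphorin, was at 49.5 in hippocampus replicate 2 and below 3 elsewhere.

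The CRMPs, which carry the signal inside the cell and are abundant in young neurons, all had negative log2 fold changes, from -0.23 to -1.27. Dpysl3 had 77147, 72447, 89826, 87481 and 89137 normalized counts in hippocampus and 36708, 38365, 51540 and 57949 in SCO. These were tight groups with no overlap. The difference was -0.87 on the log2 scale with a standard error of 0.16 (limma adjusted p = 0.0191). The call ended without hippocampus replicate 3 (limma adjusted p = 0.0604), 4 (0.0522) or 5 (0.0520), without SCO replicate 1 (0.0590) or 2 (0.0609), and in edgeR (0.0597). In the annotation Dpysl3 is ENSMUSG00000024501.20, chromosome 18, 43320984 to 43438286, minus strand.

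Dpysl2, the CRMP best known for promoting microtubule assembly, had 23676, 35482, 18648, 18596 and 18447 in hippocampus and 10432, 6076, 11378 and 13724 in SCO. The tissues did not overlap, but the log2 fold change of -1.15 (SE 0.28) missed the threshold (limma adjusted p = 0.0586). Crmp1 had the highest level of the family in hippocampus, with 121255, 29226, 134672, 157239 and 131315, and 36106, 30631, 48966 and 54278 in SCO. Hippocampus replicate 2 lay below every SCO library, and the other 4 hippocampus libraries lay above them all. The log2 fold change was -1.27 (SE 0.45, adjusted p = 0.186 in limma) with that library and -1.71 (limma adjusted p = 0.00160) without it. Dpysl5 had 6734 to 14349 in hippocampus and 2393 to 8129 in SCO, and Dpysl4 1822 to 6374 and 2400 to 6653.

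The CRMPs were also expressed relative to the summed pan-neuronal markers of the same library, because that sum was lower in SCO as well. Dpysl3 equalled 27.4% to 34.4% of that sum in hippocampus and 28.7% to 35.1% in SCO, so its tissues overlapped on this scale. Dpysl2 equalled 6.33% to 13.4% and 5.56% to 8.71%, and Dpysl5 2.54% to 5.15% and 2.00% to 4.69%. Crmp1 equalled 44.7% to 56.4% in 4 hippocampus libraries, 11.04% in replicate 2, and 26.9% to 30.2% in SCO, so apart from that library it stayed higher in hippocampus. Dpysl4 had the higher mean in SCO on this scale, 3.11% against 1.90%, with overlapping tissues. Plxna2 still had no overlap, with 1.47% to 3.05% in hippocampus and 0.351% to 0.993% in SCO. Nrp1 equalled 10.5% to 19.3% in 4 hippocampus libraries, 3.25% in replicate 2, and 2.51% to 4.37% in SCO. The chosen markers include Dcx, which itself was called lower, so this scale depends on that choice.

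**Figure D4:**
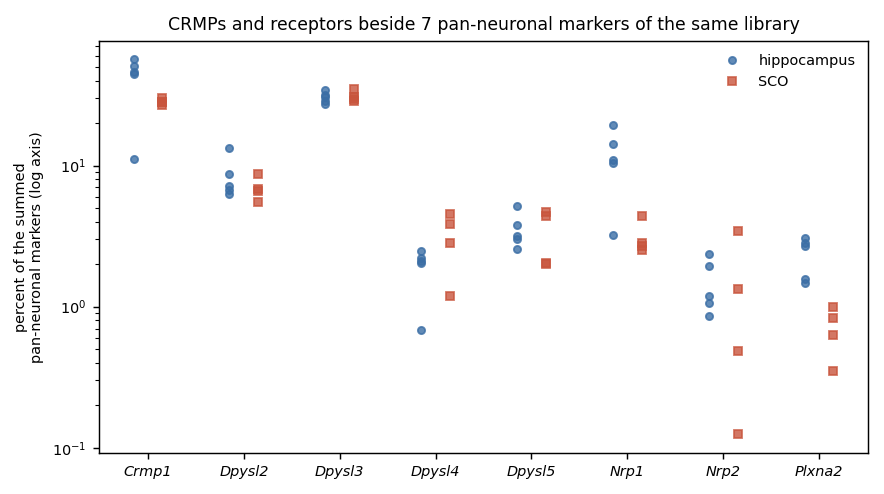
Normalized count of 5 CRMPs, both neuropilins and Plxna2 as a percentage of the summed 7 pan-neuronal markers of the same library (log axis), hippocampus as blue circles and SCO as red squares. Dpysl3 lies at 27.4% to 35.1% in all 9 libraries, while Plxna2 stays below 1% in SCO and above 1.4% in hippocampus.

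Ratios of related genes within a library, in which the size factor largely cancels, were compared for 6 pairs. Each was tested by an exact permutation test with 126 arrangements (two-sided), with p-values adjusted over the 6 pairs. The log2 ratio of Plxna2 to Plxna4 was 1.10 ± 0.49 in hippocampus (SD, n = 5) and -0.92 ± 0.41 in SCO (SD, n = 4), a difference of -2.02 (exact p = 0.00794, the smallest the design allows, adjusted p = 0.0476). Plxna2 exceeded Plxna4 in 5 of 5 hippocampus libraries and was below it in 4 of 4 SCO libraries. The log2 ratio of Plxnb1 to Plxnb2 was -0.10 ± 0.73 in hippocampus and -2.39 ± 0.69 in SCO (difference -2.29, exact p = 0.0159, adjusted p = 0.0476), and every SCO library was below every hippocampus library. Both calls end when any library other than SCO replicate 1 is left out (exact permutation adjusted p 0.0536 to 0.0857). With fewer libraries the exact test has fewer splits, and its smallest possible p is larger. The tissues did not overlap for either ratio with all libraries in, so leaving a library out could not make them overlap. Whether either ratio rests on a single library cannot be told from the lost calls. The ratios of Sema3a to Sema3f (difference -7.97) and of Sema5a to Sema5b (difference -1.58) had an exact permutation adjusted p of 0.0595 each. Those of Nrp1 to Nrp2 (difference -0.81) and of Dpysl2 to Dpysl3 (difference -0.28) had an exact permutation adjusted p of 0.5.

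**Figure D5:**
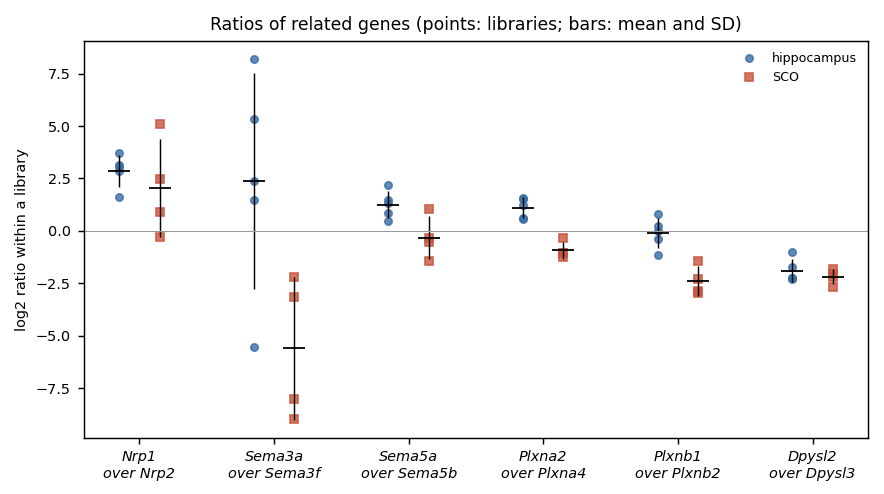
Log2 ratio of 2 related genes within a library (y axis) for 6 pairs (x axis); points are libraries, horizontal bars the mean and vertical bars the SD. The Plxna2 to Plxna4 ratio lies above 0 in 5 hippocampus libraries and below 0 in 4 SCO libraries, and that of Sema3a to Sema3f spans from -8.99 to 8.21.

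A list of 61 coreceptors and signalling partners of plexins and CRMPs was measured beside the members. In limma 1 of the 61 was higher in SCO and 3 were lower, with a median log2 fold change of -0.23. Among all tested genes 1.71% were called higher and 1.34% lower, with a median of -0.04, so the count called higher is near the share over all genes. The gene that rose was Rnd3, one of a group of small proteins that bind plexins: it had 4741, 2453, 6124, 5122 and 5110 normalized counts in hippocampus and 20281, 10773, 16665 and 8610 in SCO (limma log2 fold change 1.56, SE 0.33, adjusted p = 0.0340). Every SCO library was above every hippocampus library. The genes that fell were Chl1, an adhesion molecule that acts with neuropilin 1 (limma log2 fold change -1.52, SE 0.34, adjusted p = 0.0396), the axonal contactin gene Cntn2 (-3.95, SE 0.92, limma adjusted p = 0.0482) and Farp1, an exchange factor that binds A-type plexins (-1.21, SE 0.24, limma adjusted p = 0.0230). With 1 library left out the call held only without hippocampus replicate 2 or SCO replicate 4 for Rnd3, hippocampus replicate 2 or SCO replicate 3 or 4 for Chl1, SCO replicate 1 or 3 for Cntn2, and hippocampus replicate 2 or 3 or SCO replicate 2 for Farp1. The other fits gave limma adjusted p values up to 0.0966 for Rnd3, 0.0983 for Chl1, 0.105 for Cntn2 and 0.0627 for Farp1. The Cntn2 value rests in part on SCO replicate 3, which held 28.3 normalized counts against 599 to 1234 in the other SCO libraries: without it the log2 fold change was -2.75 (limma adjusted p = 0.00503), and without SCO replicate 1 it was -4.55.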

How the data were processed

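Bulk RNA sequencing of P0 hippocampus and SCO was used. The submitters' processing notes name FastQC, HISAT, HISAT2, featureCounts, DESeq2 and the build GRCm38. The sources used here do not give versions, annotation or the strand setting of counting. The authors deposited a normalized signal per library, read counts divided by 1 size factor, and their own comparison as log2 fold changes, a statistic given as a score, and p-values. Dividing by what 1 read is worth gave whole reads for 100% of values (tolerance 1e-06), and edgeR on those reads called 503 genes. No replicate pair had counts that agree within sampling noise.

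The test was limma-trend on log2(value + 1) for the 28150 genes whose mean reached 1 in hippocampus or SCO, two-sided, with Benjamini-Hochberg adjustment over all of them (859 called at adjusted p under 0.05, 3.05%). On this scale, libraries at or near 0 pull the mean of logs, so fold changes of unevenly detected genes differ from the ratio of means. The members, lists and pairs were chosen with earlier results of these data known. Full values were to be given for called members and the most abundant of each class; Dpysl2, Nrp2, Plxnb2, Sema5a, Sema3a, Sema3e and the other class 3 genes were added after their values were seen. Pathway genes were named if called with a mean of at least 10. The 3 printed windows, the marking of CG dinucleotides in them and the comparison with the pan-neuronal sum were also chosen after values were seen. Gene positions and exon lengths come from GENCODE M21 and the windows before transcript starts from RefSeq (GRCm38.p6). The count tools DESeq2 1.42.0 and edgeR 4.0.16, used as alternatives, and limma 3.58.1 ran under R 4.3.3. Figures used matplotlib 3.10.9 under Python 3.11.15. The SDs and standard errors given reflect the variation between libraries.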

Additional observations from a re-analysis of the deposited data

Results flagged for a closer look

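In 71 groups of 4 or 5 libraries with any signal, a gap test (Dixon, 95%) marked 9 single libraries in 8 genes. Chance marks about 1 group in 20 for normally distributed values, a rate that need not hold for these counts. A group with signal in only 1 library is always marked. Hippocampus replicate 2 was the low library for Crmp1 (29226 normalized counts, next 121255) and Dpysl4 (1822, next 5496), and the high one for Sema6c (170, next 65.5) and Sema7a (49.5, next 2.93). Hippocampus replicate 3 was high for Sema3d (289, next 10.2). SCO replicate 3 was low for Plxnc1 (340, next 1026). SCO replicate 2 was high for Sema3a (98.9, the others 0) and for Sema7a (2.95, which is 2 reads, the others 0). Sema3g had its only read in hippocampus replicate 5 (0.381).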

How the results depend on the processing

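The call counts and the called genes were recomputed under 19 alternatives, and the pair ratios under those that apply to them. Members called higher in SCO (1) numbered 0 in edgeR and with the replicate block, and 2 in DESeq2 and without hippocampus replicate 2 and SCO replicate 4 together; with 1 library left out they numbered 1 each time. Members called lower (3) numbered 7 in DESeq2, 5 without those 2 libraries and 0 with the replicate block, and 1 to 5 with 1 library left out. Pathway genes called higher (1) numbered 3 in DESeq2 and 0 with the block, and 0 to 1 with a library left out. Pathway genes called lower (3) numbered 1 with no filter and in edgeR, 8 in DESeq2 and 0 with the block, and 0 to 2 with a library left out. Over all genes, 503 were called by edgeR, 2708 by DESeq2 and 1 with the block (3640 at an unadjusted p under 0.05). Libraries with the same replicate number were not correlated (-0.03 to 0.02), which cannot settle whether libraries are paired in another way. The submitters' library names carry different numbers, and a pairing by those was not tested. The block uses replicate numbers 1 to 4 and leaves out hippocampus replicate 5. It left the adjusted p of the 4 called members above the threshold, at most 0.134 (limma). The pair Plxna2 to Plxna4 gave -1.98 with the block, -2.11 without those 2 libraries and -2.22 to -1.90 with 1 left out. Plxnb1 to Plxnb2 gave -2.36, -1.90 and -2.61 to -2.06 likewise, and Sema5a to Sema5b -2.03 to -1.20 with 1 left out, past the threshold without SCO replicate 1. With fewer libraries the exact test has fewer splits. Some genes that were not called changed sign. Without those 2 libraries Sema4a was at -0.22 and Sema6b at 0.43, and with the block Sema4c was at -0.11 and Sema6b at 0.030. With 1 library left out the log2 fold changes ran from -0.58 to 0.022 for Dpysl4, -0.78 to 0.28 for Plxna3, -0.46 to 0.20 for Plxnb1, -0.47 to 1.41 for Sema4a, -0.11 to 1.64 for Sema4c, -0.64 to 0.23 for Sema6b and -1.58 to 0.079 for Sema6c. The cause of these sign changes was not tested. Reads were few for Sema3g, Sema7a and Sema3a in SCO, at 0, 2 and 67. The part of sequencing depth in this was not tested.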
